A study of Mus musculus with 32 samples.

Results

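The clustered protocadherins are cell-surface adhesion molecules whose genes stand in tandem in an alpha, a beta and a gamma cluster on mouse chromosome 18. Members were taken by symbol, as every gene entry named Pcdha, Pcdhac, Pcdhb, Pcdhga, Pcdhgb or Pcdhgc followed by a number. This gave 58 of the 52636 gene entries in the RNA-seq tables. The alpha cluster held 14 of them, the beta cluster 22 and the gamma cluster 22. The rule itself uses the symbol and no measured value, although earlier results of these data were known when it was chosen. In RefSeq positions on GRCm38.p6, the assembly of mm10, alpha members lay at chr18:36930285-37188897, beta members at chr18:37264998-37521419 and gamma members at chr18:37661775-37841873. A position was found for 56 members. The other 2 were alpha entries that both carried the symbol Pcdha11, ENSMUSG00000007440 and ENSMUSG00000102206, and they are given here with their Ensembl identifiers. No entry carried the symbol Pcdha10, and whether the symbol Pcdha11 is right for both entries is not settled here.

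A neuron transcribes only some of its clustered protocadherins, and the combination serves as a surface identity. Like proteins bind between membranes, and in several neuron types contact between branches of the same cell, which share the combination, ends in repulsion. Each alpha and gamma gene has its own variable first exon, which is spliced to constant exons shared across its cluster. Each beta gene has a single coding exon of its own. Most variable promoters are chosen by chance in each cell, with CTCF and cohesin bringing a promoter to a distant enhancer and with DNA methylation, laid down by Dnmt3b, and Smchd1 limiting the choice. The C-type genes, Pcdhac1, Pcdhac2, Pcdhgc3, Pcdhgc4 and Pcdhgc5, stand at the downstream ends of the alpha and gamma clusters and are mostly switched on by cell type rather than by chance.

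RNA was measured in 4 groups of 3 libraries, 12 in all, each from hybrid mouse cells carrying the doxycycline-inducible TetO-Ngn2 (Neurog2) transgene. Deletion iNs and deletion ESCs were Mirg(Delta/+), with the maternal miR-379 to miR-410 microRNA cluster deleted. Control iNs and control ESCs were Mirg(fl/+), so that they carried the floxed allele. The iNs, induced neurons, were collected at day 10 of doxycycline in neuron differentiation medium, and the ESCs, embryonic stem cells, at day 0 in serum and LIF. Total RNA was depleted of ribosomal RNA and sequenced as paired 75-base reads. The labels state neither the number of clones behind a genotype nor whether the replicates A, B and C were separate cultures, so the p-values reflect only how far these particular libraries spread, which may be technical. Regions from the pulldown of Ago2 came from control iNs expressing HA-tagged or untagged Ago2.

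Libraries held 14904735 to 21499106 counts. Mirg, the host transcript of the deleted microRNAs, had 0.101, 0 and 0.101 CPM (counts scaled to a common library size with edgeR's TMM) in deletion iNs, against 30.4 to 37.6 CPM in control iNs. In deletion ESCs it was at 0 in every library, against 40.6 to 44.4 CPM in control ESCs. Neurog2 was higher in deletion iNs, at 647.7, 583.4 and 582.9 CPM, against 215.4, 213.6 and 240.5 CPM in control iNs (log2 fold change 1.44 ± 0.06 (SE), adjusted p = 1e-09 by edgeR's quasi-likelihood test). The sources used here do not state whether this count includes reads of the TetO-Ngn2 transgene, so transgene and endogenous RNA cannot be told apart. Its part in the differences between the iN groups was not tested. The 10 pan-neuronal markers summed to 9900 to 10200 CPM in deletion iNs and 9810 to 10000 CPM in control iNs, against 309 to 322 CPM in deletion ESCs and 265 to 272 CPM in control ESCs. Of these 10, 5 were called higher in deletion than in control iNs and 0 lower (edgeR adjusted p under 0.05), with a median log2 fold change of 0.12. Of all 16028 genes tested, 12.4% were called higher and 13.3% lower. The 10 pluripotency markers summed to at most 6.54 CPM in deletion iNs and 9.8 CPM in control iNs, against at least 2470 CPM in deletion ESCs and 2620 CPM in control ESCs. The 8 neural progenitor markers summed to 455 to 479 CPM in deletion iNs (Sox1 at 0) and 591 to 634 CPM in control iNs, mostly from Vim. Of 5 progenitor markers tested between the iN genotypes, Vim was called lower in deletion iNs (log2 fold change -0.45). Pax6 (0.92) and Nes (0.88) were called higher, and the median of the 5 was 0.52. The 10 glial markers summed to 47.6 to 53.8 CPM in deletion iNs and 42.4 to 45.5 CPM in control iNs (Gfap and Sox10 at 0 in both). Most of this sum was Mbp, which averaged 43.4 CPM in deletion iNs and 37.4 CPM in control iNs. Slc1a3 averaged 0.104 CPM in deletion iNs and 0.0991 CPM in control iNs. The 8 fibroblast markers summed to 87.7 to 99.5 CPM in deletion iNs (Dcn and Lum at 0) and 70.6 to 81.4 CPM in control iNs (Lum at 0). Most of this sum came from Thy1 and Postn. Thy1 averaged 59.0 CPM in deletion iNs and 42.0 CPM in control iNs, and Postn 28.4 and 29.7 CPM. Col1a1 averaged 0.118 CPM in deletion iNs and 0.193 CPM in control iNs. Between the ESC genotypes, the progenitor markers summed to 390 to 398 CPM in deletion ESCs and 286 to 294 CPM in control ESCs, the fibroblast markers to 92.5 to 103 CPM in deletion ESCs and 55.1 to 63.3 CPM in control ESCs, and the glial markers to 59.8 to 65.7 CPM in deletion ESCs and 58.4 to 62.6 CPM in control ESCs. Whether these sums reflect such cell types, and any part of those cell types in the differences below, was not tested.

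All 3 clusters were far higher in iNs than in ESCs, and the alpha and beta clusters by much more than the gamma cluster. The alpha members together had 653.9, 661.8 and 649.2 CPM in deletion iNs and 683.4, 679.4 and 703.4 CPM in control iNs. In ESCs they had 5.63, 7.01 and 7.33 CPM in the deletion libraries and 3.70, 5.27 and 4.85 CPM in the control libraries. Every iN library was far above every ESC library. The beta members had 601.8, 622.8 and 612.4 CPM in deletion iNs and 581.3, 536.3 and 599.8 CPM in control iNs, against 2.91, 3.32 and 2.62 CPM in deletion ESCs and 2.71, 1.87 and 3.25 CPM in control ESCs. The gamma members had 614.3, 624.0 and 609.0 CPM in deletion iNs and 568.5, 600.7 and 612.8 CPM in control iNs, against 94.2, 93.7 and 94.9 CPM in deletion ESCs and 98.2, 93.2 and 93.9 CPM in control ESCs. The gamma cluster was therefore the one with a clear ESC level, and the 3 clusters came close to one another only in iNs.

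**Figure D1:**
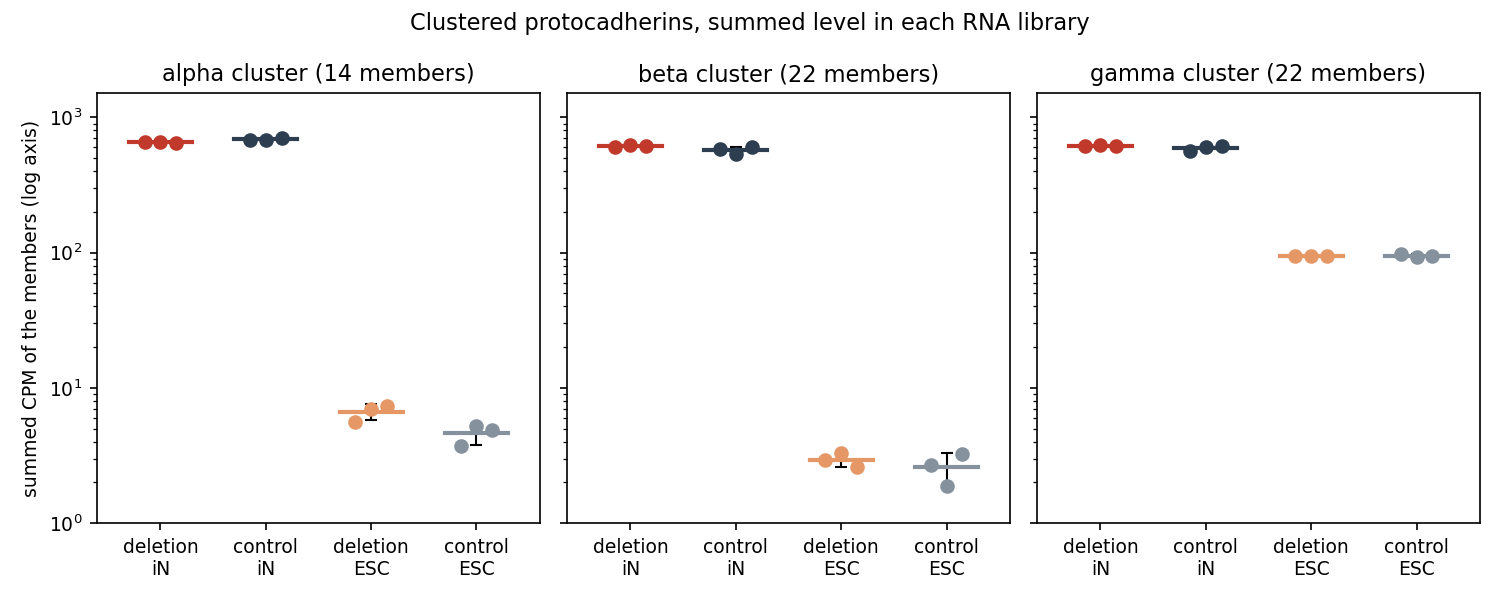
Summed CPM of the alpha, beta and gamma members in each RNA library, on a log axis, with a panel for each cluster; each point is 1 library, the thick bar is the group mean and the whiskers are SDs. The iN libraries of all 3 clusters lie between 536.3 and 703.4 CPM, while ESC libraries lie at 7.33 CPM or below for alpha and beta and between 93.2 and 98.2 CPM for gamma.

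As ratios of group means of CPM, deletion iNs over deletion ESCs gave 98.4-fold for alpha, 208-fold for beta and 6.53-fold for gamma. Control iNs over control ESCs gave 150-fold for alpha, 219-fold for beta and 6.25-fold for gamma. No test was made of a sum. The sums cannot tell apart more expressing cells from more RNA per cell. Because the gamma cluster started from a higher level, the make-up of protocadherin RNA differed between the cell types. Of the length-corrected level (TPM, RSEM's estimate of transcript share) of all members, gamma members made up 33.2 to 33.7% in deletion iNs and 31.5 to 33.4% in control iNs, against 90.2 to 92.3% in deletion ESCs and 92.7 to 94.4% in control ESCs. Alpha members made up 30.3 to 30.6% in deletion iNs and 32.2 to 32.9% in control iNs, against 4.75 to 6.28% in deletion ESCs and 3.08 to 4.6% in control ESCs. Beta members made up 35.7 to 36.6% in deletion iNs and 33.7 to 35.8% in control iNs, against 2.47 to 3.68% in deletion ESCs and 1.7 to 3.11% in control ESCs.

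Across single members, every alpha and gamma member and every tested beta member passed the threshold as higher in iNs, in both genotypes. The threshold was an adjusted p of 0.05 by edgeR's quasi-likelihood test with Benjamini-Hochberg adjustment over all genes tested. Between deletion iNs and deletion ESCs, 57 of 57 tested members were higher, where 44.6% of all 17524 genes tested were higher and 44.9% lower, 89.4% in all. Between control iNs and control ESCs, 57 of 57 tested members were higher, where 43.9% of all 17247 genes tested were higher and 45.1% lower, 89.0% in all. The untested member in both was Pcdhb1, whose promoter lacks the sequence element that most members share, with 1.06, 1.05 and 0.304 CPM in deletion iNs and 0.535, 0.519 and 0.523 CPM in control iNs. Only 29 members, 7 alpha and 22 gamma, passed the filter on low counts in ESC libraries alone, and the others entered these tests through their iN level, so their counts describe them and lend no support.

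The alpha members had a median log2 fold change of 6.34 for deletion iNs over deletion ESCs and 7.14 for control iNs over control ESCs, while the median over all genes tested was -0.01 and -0.03. Pcdha1 had 75.5, 76.6 and 67.6 CPM in deletion iNs, against 0.126, 0.0648 and 0 CPM in deletion ESCs. It had 90.0, 82.2 and 78.8 CPM in control iNs, against 0, 0.185 and 0.0608 CPM in control ESCs. Both iN groups stood clear of ESC libraries that held almost no read of the gene. The fitted log2 fold change of Pcdha1 was 9.93 in the deletion pair and 10.06 in the control pair. Pcdha3 had a fitted 8.39 in the deletion pair and 8.37 in the control pair, and Pcdha2 one of 9.11 in the deletion pair. These sizes and their order rest on a few ESC counts, which for Pcdha1 were 3, 1 and 0 in deletion ESCs and 0, 3 and 1 in control ESCs, and are given as a description.

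Pcdhac2, a C-type gene needed for the even spread of serotonergic axons, had the highest TPM of the alpha cluster in both iN groups. It had 18.7, 17.1 and 18.5 TPM in deletion iNs and 14.3, 18.3 and 16.7 TPM in control iNs. On CPM it had 99.4, 100.7 and 99.7 in deletion iNs and 101.0, 108.8 and 108.7 in control iNs. These CPM groups did not overlap, but the gene was not called (log2 fold change -0.09, edgeR adjusted p = 0.274). TPM ran higher by a median of 0.231 (log2) over 15890 genes in deletion iNs than in control iNs, so TPM is used here to order members within a group, and genotypes are compared on CPM. In ESCs it had at most 0.07 TPM in either genotype. Pcdha1 was next with a mean of 15.5 TPM in deletion iNs and 15.3 TPM in control iNs. Pcdha4 ranged from 13.3 to 14.8 TPM in deletion iNs and from 11.2 to 12.8 TPM in control iNs, while on CPM its genotypes overlapped (log2 fold change -0.12, not called). The lowest alpha member was Pcdha7, at a mean of 5.71 TPM in deletion iNs and 4.38 TPM in control iNs. In ESCs the order was another one, with the Pcdha11 entry ENSMUSG00000102206 highest, at a mean of 0.283 TPM in deletion ESCs and 0.16 TPM in control ESCs. All 14 alpha members had a count in every iN library, and 12 to 14 of them had one in an ESC library.

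The beta members reached the range of the other clusters in iNs and were close to 0 in ESCs. In an ESC library, 15 to 17 of the 22 beta members had any count, and the beta sum was 31 to 64 counts. Their median log2 fold change was 7.62 for deletion iNs over deletion ESCs and 7.81 for control iNs over control ESCs (7.7 with members at 0 set to their bound). Pcdhb10 had no count in any of the 6 ESC libraries and 24.6, 20.7 and 20.4 CPM in deletion iNs and 16.9, 17.3 and 15.2 CPM in control iNs. Set against a floor of 3 counts over the group, it was at least 428-fold higher in deletion iNs than in deletion ESCs and at least 309-fold higher in control iNs than in control ESCs. On the same floor Pcdhb12 was at least 490-fold higher in deletion iNs than in deletion ESCs. In control iNs, Pcdhb13 was at least 343-fold and Pcdhb15 at least 144-fold higher than in control ESCs. Pcdhb5 had 1 count over the 3 deletion ESC libraries, and its ratio of 1380 had a 95% counting interval of 248 to 54600. These intervals and floors cover counting error only.

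Among beta members in iNs, Pcdhb11 and Pcdhb2 had the highest levels. Pcdhb11 had 18.0, 14.9 and 17.1 TPM in deletion iNs and 16.3, 16.9 and 16.8 TPM in control iNs. Pcdhb2 had 16.2, 16.9 and 18.6 TPM in deletion iNs and 12.9, 13.0 and 14.8 TPM in control iNs, while on CPM its genotypes overlapped (log2 fold change 0.13, edgeR adjusted p = 0.179). Their order within deletion iNs was not the same in every library. Pcdhb3 was at 11.5 to 13.0 TPM in deletion iNs and 8.64 to 9.75 TPM in control iNs, and Pcdhb6 at 9.37 to 9.51 TPM in deletion iNs and 8.29 to 10.1 TPM in control iNs. Pcdhb1 stood far below the rest with a mean of 0.343 TPM in deletion iNs and 0.193 TPM in control iNs. The next lowest were Pcdhb15 with 3.16 TPM in deletion iNs and Pcdhb9 with 2.49 TPM in control iNs.

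All 22 gamma members were detected in every ESC library, with at least 30 counts each. Their median log2 fold change was 2.52 for deletion iNs over deletion ESCs and 2.28 for control iNs over control ESCs, and their range was wide. Pcdhga7 had 20.5, 19.1 and 19.6 TPM in deletion iNs, against 0.94, 0.73 and 0.8 TPM in deletion ESCs. In control iNs it had 14.1, 18.7 and 16.2 TPM, against 1.07, 0.7 and 0.78 TPM in control ESCs. Its log2 fold change on CPM, 4.73 in the deletion pair and 4.62 in the control pair, was the highest of the gamma cluster. Pcdhga6 followed with 4.63 in the deletion pair and 4.59 in the control pair, and Pcdhgb6 with 3.92 in the deletion pair and 3.86 in the control pair. Pcdhga6 was the lowest gamma member in ESCs, at a mean of 0.363 TPM in deletion ESCs and 0.397 TPM in control ESCs, and had 10.1 to 11.2 TPM in deletion iNs and 8.94 to 9.92 TPM in control iNs.

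The 3 gamma C-type genes did not share a pattern. Pcdhgc3, which binds the Wnt-pathway scaffold Axin1 and shapes cortical dendrites, was the highest gamma member in every ESC library, at 4.12, 3.54 and 3.91 TPM in deletion ESCs and 3.41, 3.37 and 3.27 TPM in control ESCs. It remained near the top in iNs, with 19.1, 15.8 and 17.1 TPM in deletion iNs and 16.0, 21.8 and 16.7 TPM in control iNs. Its log2 fold change over ESCs was 1.99 in the deletion pair and 2.61 in the control pair. Pcdhgc4, needed for the survival of many interneurons, had 3.02, 2.73 and 2.74 TPM in deletion iNs and 1.68, 1.95 and 2.04 TPM in control iNs, against 0.57 to 0.68 TPM in deletion ESCs and 0.67 to 0.9 TPM in control ESCs. Pcdhgc5, which binds GABA-A receptors, was the lowest gamma member in both iN groups. It had 1.42, 1.33 and 1.36 TPM in deletion iNs and 0.73, 0.93 and 1.04 TPM in control iNs, close to the 0.44 to 0.72 TPM of deletion ESCs and the 0.59 to 0.75 TPM of control ESCs. Its log2 fold change, 1.01 in the deletion pair and 0.55 in the control pair (edgeR adjusted p = 0.00453), was the lowest of the gamma cluster in both. In the alpha cluster the C-type gene Pcdhac1 had 36.0, 35.4 and 40.7 CPM in deletion iNs and 39.6, 39.8 and 46.2 CPM in control iNs, against at most 0.529 CPM in an ESC library.

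**Figure D2:**
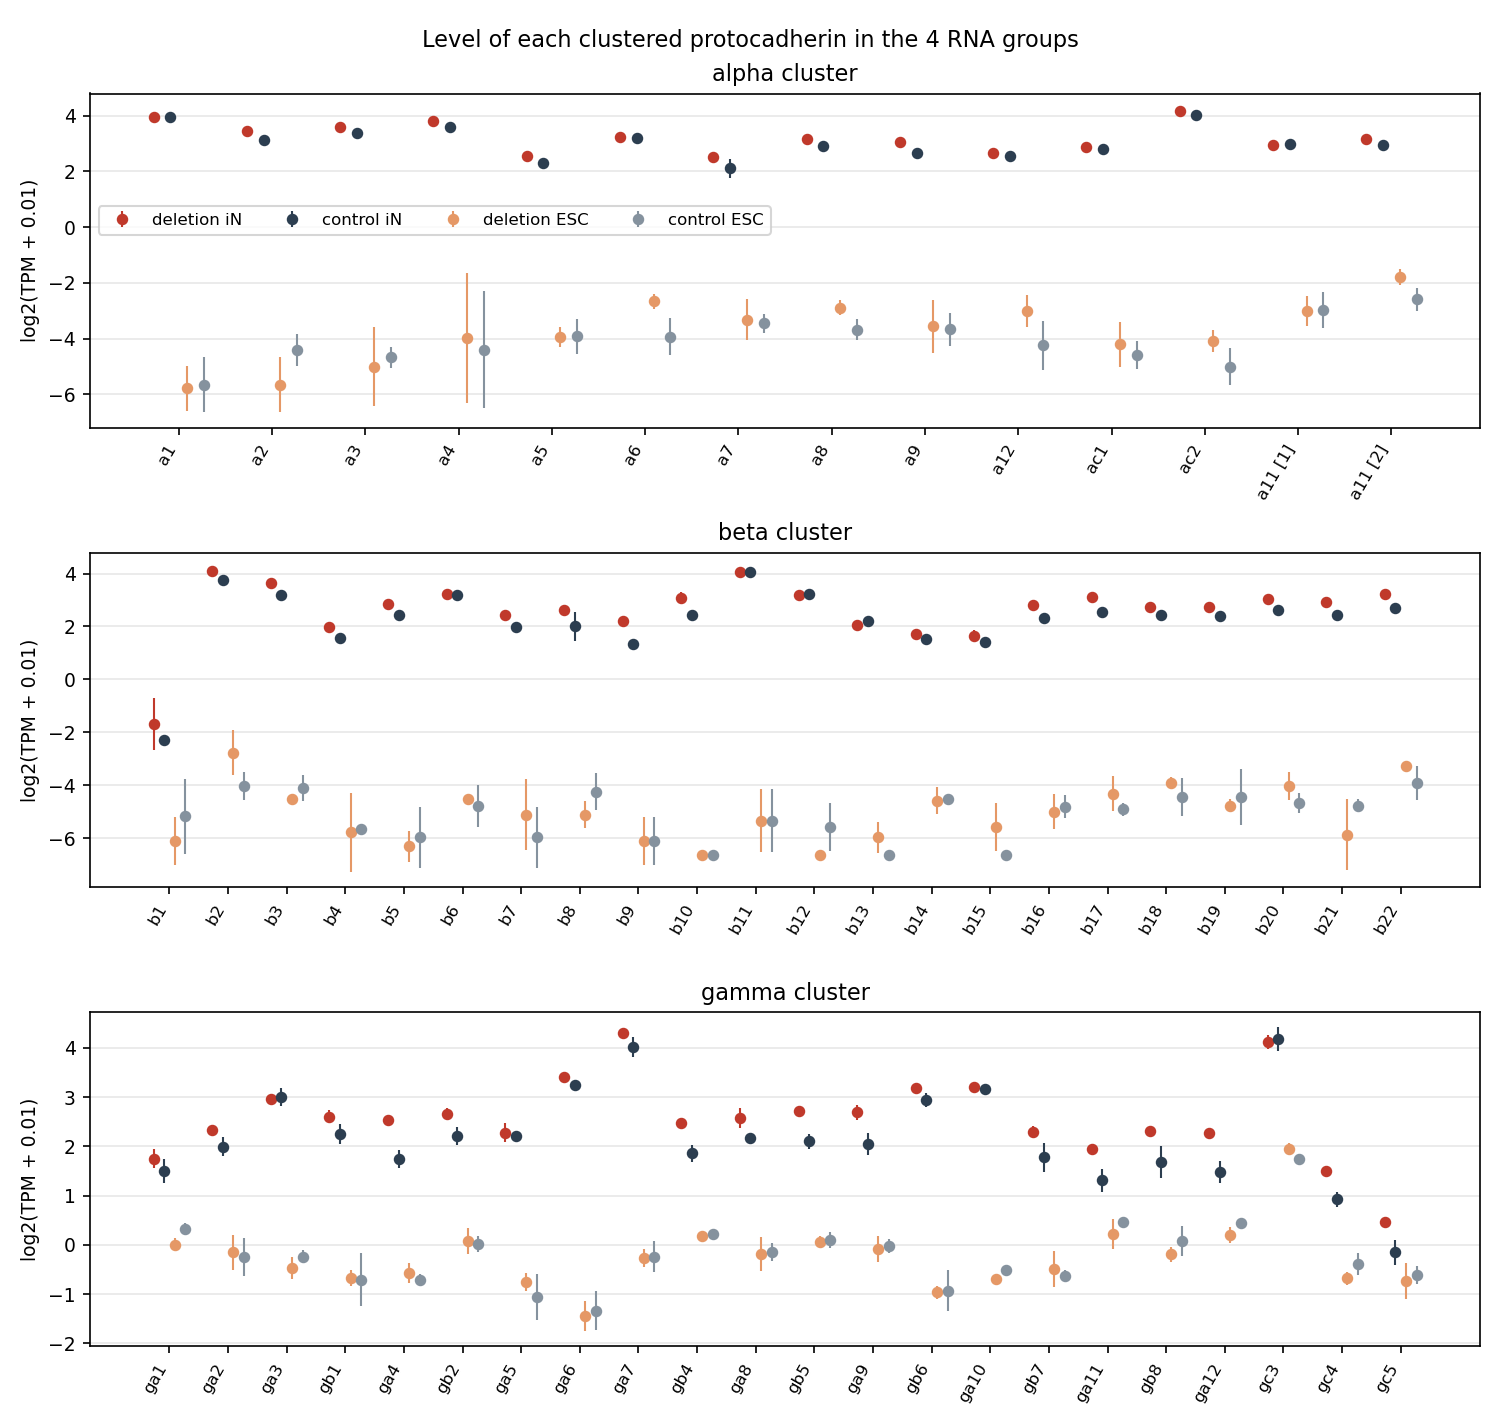
Level of each member as log2(TPM + 0.01) in the 4 RNA groups, with a panel for each cluster; points are means and bars SDs of 3 libraries, members run in their order along the chromosome, labels leave out the prefix Pcdh, and the 2 entries named Pcdha11 stand last as a11 [1] (ENSMUSG00000007440) and a11 [2] (ENSMUSG00000102206). The iN points lie far above the ESC points across the alpha and beta panels and less far across the gamma panel, where Pcdhgc5 shows the smallest distance; Pcdhb1 is the lowest beta member in iNs.

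How evenly RNA was spread over a cluster was read as the effective number of members, the exponential of the Shannon entropy of their TPM shares, which equals the cluster size when all levels are equal. The alpha cluster came to 13.1 to 13.2 of 14 in deletion iNs and 12.9 to 13.2 in control iNs. The beta cluster came to 18.9 to 19.3 of 22 in deletion iNs and 18.3 to 18.5 in control iNs, and the gamma cluster to 18.7 to 18.9 of 22 in deletion iNs and 16.9 to 18.1 in control iNs. In these bulk libraries no member dominated: the top gamma member was Pcdhga7 in deletion iNs, with 12.7 to 13.3% of gamma TPM, and Pcdhgc3 in control iNs, with 13.0 to 16.2%. The top beta member took at most 10.9% in deletion iNs and 13.1% in control iNs. A bulk measure gives no information on how many members a single cell transcribed. C-type genes made up 10.0 to 10.6% of all member TPM in deletion iNs and 11.2 to 12.5% in control iNs, against 22.5 to 22.9% in deletion ESCs and 20.2 to 21.7% in control ESCs.

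The deletion in iNs was accompanied by small shifts of many members, mostly upward in the gamma and beta clusters, while no alpha member was called higher. Of 58 members tested, 25 passed the threshold, 16 higher and 9 lower in deletion iNs. This was 43.1% of members, where 25.6% of all 16028 genes tested were called, 12.4% higher and 13.3% lower. The gamma cluster had 9 higher and 3 lower of 22 with a median log2 fold change of 0.24, the beta cluster 7 higher and 3 lower of 22 with a median of 0.18, and the alpha cluster 0 higher and 3 lower of 14 with a median of -0.08. Over all genes tested the median was 0.004. No member moved by more than 0.66 on the log2 scale. All 25 called members had groups that did not overlap in CPM, as did 3 alpha, 3 beta and 1 gamma member that were not called. The share of all genes with groups apart was not counted, so this separation only describes the members. Under every alternative tried, 11 of the 25 kept their call, 8 higher and 3 lower, 5 of them beta, 6 gamma and 0 alpha. Without deletion iN replicate C the counts were 10 higher and 4 lower, and without deletion iN replicate B the count of lower members was 5.

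In the gamma cluster, Pcdhga12 rose most in deletion iNs, with 21.3, 22.1 and 20.6 CPM, against 12.8, 13.9 and 16.2 CPM in control iNs. Every deletion library lay above every control library (log2 fold change 0.58 ± 0.10 (SE), edgeR adjusted p = 0.00047). Pcdhga4 had 25.1, 26.5 and 23.3 CPM in deletion iNs, against 16.4, 16.1 and 19.3 CPM in control iNs (0.53 ± 0.09, edgeR adjusted p = 0.000541). Pcdhga11 had 15.8, 17.5 and 17.7 CPM in deletion iNs, against 11.5, 12.4 and 14.6 CPM in control iNs (0.41 ± 0.11, edgeR adjusted p = 0.0096). Its call was lost without deletion iN replicate C, with an adjusted p of 0.052. The 7 Pcdhgb genes all had positive log2 fold changes, from 0.02 to 0.41, and 4 of them, Pcdhgb2, Pcdhgb4, Pcdhgb5 and Pcdhgb8, passed the threshold. Of these, Pcdhgb4 and Pcdhgb5 kept their call under every alternative, while Pcdhgb2 lost it in 7, among them DESeq2 and all 12 libraries in 1 fit (adjusted p up to 0.129), and Pcdhgb8 in 3, among them all 12 in 1 fit (edgeR adjusted p up to 0.128). The 12 Pcdhga genes had 4 higher and 2 lower, with a median of 0.06.

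Pcdhgc3 fell in deletion iNs to 73.7, 67.6 and 66.8 CPM, against 82.7, 98.9 and 80.0 CPM in control iNs. The groups did not overlap (log2 fold change -0.33 ± 0.08, edgeR adjusted p = 0.00478), although 1 control library stood well above the other 2. Pcdhga3 likewise fell, to 34.8, 34.4 and 33.4 CPM in deletion iNs, against 39.5, 42.7 and 40.9 CPM in control iNs (-0.26, edgeR adjusted p = 0.0058). Pcdhga10 fell by 0.19, a call that was lost under 5 alternatives. Pcdhgc5 was called higher, with 6.99, 7.32 and 6.98 CPM in deletion iNs, against 5.05, 5.13 and 6.04 CPM in control iNs, and lost its call under 8 alternatives, with adjusted p of 0.056 to 0.138 in edgeR or DESeq2. Pcdhgc4 had a log2 fold change of 0.30 that did not pass (edgeR adjusted p = 0.089). Split by level, the 11 gamma members with lower mean TPM in iNs had 6 higher and 0 lower with a median of 0.39, and the 11 with higher levels had 3 higher and 3 lower with a median of 0.02. Across the 22 gamma members, which share the same 6 libraries and the same split of shared-exon reads, log2 fold change and iN level had a Pearson r of -0.634 and a Spearman rho of -0.663, given as a description.

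In the beta cluster, Pcdhb9 rose most, with 13.9, 13.2 and 11.1 CPM in deletion iNs, against 8.83, 7.01 and 8.49 CPM in control iNs (log2 fold change 0.66 ± 0.13 (SE), edgeR adjusted p = 0.00117). Pcdhb22 had 47.5, 47.7 and 45.8 CPM in deletion iNs, against 35.5, 32.9 and 37.5 CPM in control iNs (0.42 ± 0.06, edgeR adjusted p = 0.000231). Pcdhb10 was at 24.6, 20.7 and 20.4 CPM in deletion iNs, against 16.9, 17.3 and 15.2 CPM in control iNs (0.41 ± 0.10, edgeR adjusted p = 0.0055). In all 3 genes the lowest deletion library lay above the highest control library. Pcdhb17, at 36.8, 37.3 and 39.4 CPM in deletion iNs and 30.2, 28.4 and 29.8 CPM in control iNs, rose by 0.37 on the log2 scale, and kept its call under every alternative. Pcdhb16, Pcdhb21 and Pcdhb3 were also called higher but lost the call in 4, 5 and 4 alternatives, the last 2 also under DESeq2, with adjusted p up to 0.124, 0.148 and 0.0683 in edgeR or DESeq2.

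The 3 beta members called lower in deletion iNs were direct neighbours on the chromosome, Pcdhb11, Pcdhb12 and Pcdhb13. Pcdhb13 had 13.8, 14.1 and 14.8 CPM in deletion iNs, against 17.3, 17.6 and 19.9 CPM in control iNs (log2 fold change -0.36, edgeR adjusted p = 0.01). Pcdhb12 had 23.9, 24.7 and 26.6 CPM in deletion iNs, against 32.3, 28.2 and 30.9 CPM in control iNs (-0.28, edgeR adjusted p = 0.0162). Pcdhb11 had 70.8, 65.3 and 68.5 CPM in deletion iNs, against 84.7, 74.3 and 81.0 CPM in control iNs (-0.23, edgeR adjusted p = 0.0143). Each was lower in all 3 deletion libraries than in any control library. Pcdhb13 kept its call under every alternative, while Pcdhb12 lost it without deletion iN replicate A or B (edgeR adjusted p up to 0.0749) and Pcdhb11 without deletion iN replicate B or C or with all 12 libraries in 1 fit (up to 0.103). The next member upstream of the trio, Pcdhb10, moved the other way, and the next downstream, Pcdhb14, had -0.07 and was not called. Pcdhb6, which is not next to the trio, had -0.17 with groups that did not overlap, and was not called (edgeR adjusted p = 0.0666).

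In the alpha cluster, the Pcdha11 entry ENSMUSG00000007440 had 40.0, 39.0 and 36.7 CPM in deletion iNs, against 47.0, 41.9 and 49.7 CPM in control iNs (log2 fold change -0.26 ± 0.07 (SE), edgeR adjusted p = 0.0148). Pcdha6 had 47.4, 43.1 and 44.9 CPM in deletion iNs, against 52.1, 54.3 and 49.6 CPM in control iNs (-0.20, edgeR adjusted p = 0.0235). Pcdha1, with the values given above, had a log2 fold change of -0.19 (edgeR adjusted p = 0.0486). All 3 calls were lost under some alternatives, among them without deletion iN replicate C, and with adjusted p of up to 0.115, 0.0988 and 0.224 in edgeR. The other 11 alpha members, both C-type genes among them, were not called.

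**Figure D3:**
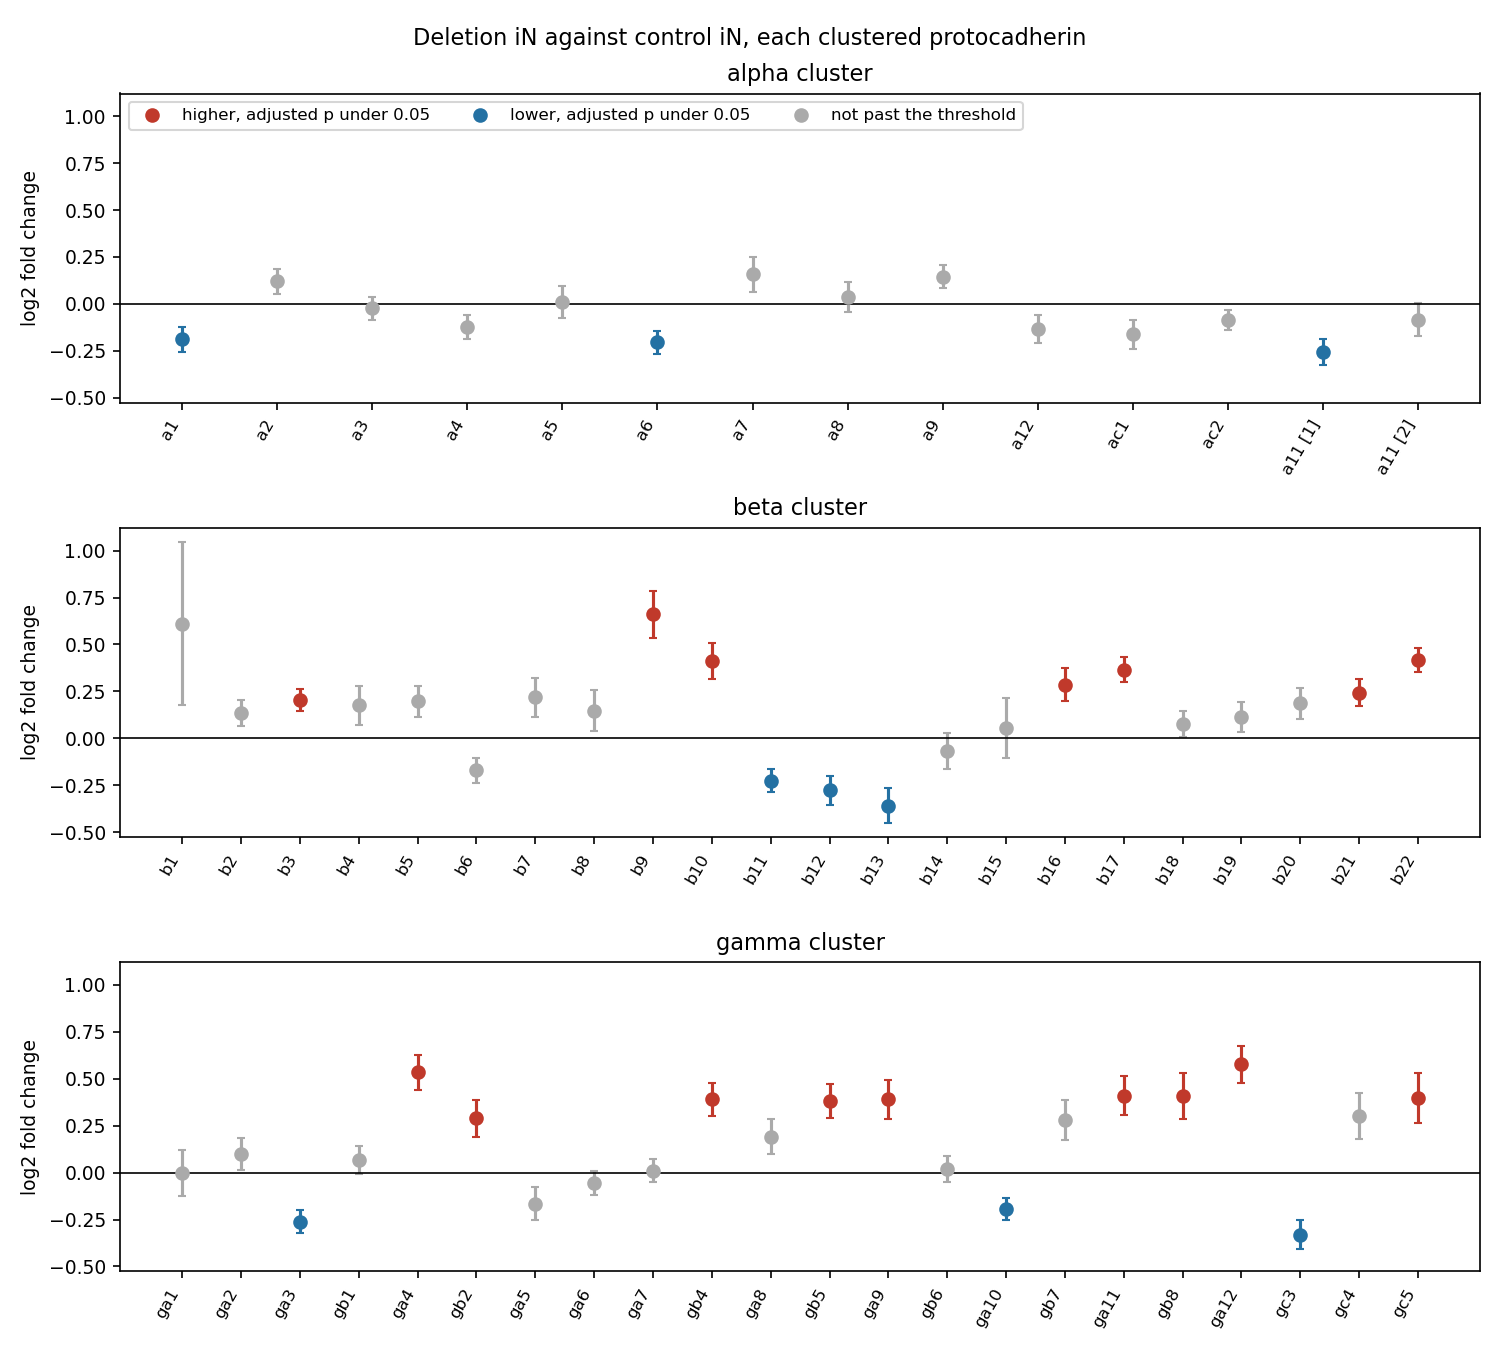
Log2 fold change of each member in deletion iNs over control iNs by edgeR, with a panel for each cluster and members in chromosome order; bars are SEs, red points passed the adjusted p of 0.05 as higher and blue points as lower, grey points did not pass, labels leave out the prefix Pcdh and a11 [1] and a11 [2] are ENSMUSG00000007440 and ENSMUSG00000102206. Gamma and beta points lie mostly above 0. The beta points called lower, Pcdhb11, Pcdhb12 and Pcdhb13, stand side by side, and the alpha points called all lie below 0.

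As sums, the alpha cluster had 655.0 ± 6.33 CPM in deletion iNs and 688.8 ± 12.9 CPM in control iNs (SD, n = 3 each), the beta cluster 612.3 ± 10.5 CPM in deletion iNs and 572.4 ± 32.7 CPM in control iNs, and the gamma cluster 615.8 ± 7.57 CPM in deletion iNs and 594.0 ± 22.9 CPM in control iNs. The ratios of deletion iNs over control iNs were 0.951 for alpha, 1.07 for beta and 1.04 for gamma, with groups that overlapped for gamma but not for alpha or beta. The direction for alpha depends on the scale. On the deposited TPM the log2 ratio of the alpha sum was 0.165, against -0.07 on CPM, which is less than the shift of 0.231 over all genes in deletion iNs given above. Relative to that shift the log2 ratios on TPM were -0.07 for alpha, 0.09 for beta and 0.07 for gamma. Of the 25 called members, Pcdha1, Pcdha6, Pcdhb11 and Pcdhga10 had the other sign in TPM as deposited and 0 members had it relative to the shift. For alpha and gamma members the counts also rest on RSEM's split of shared reads: its posterior SD was 1.47 to 4.34% of the count for alpha and 1.95 to 6.57% for gamma in the iN groups, and at most 0.593% for beta.

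The authors' deposited table for the same comparison, made with DESeq2, listed 14 alpha, 22 beta and 21 gamma members and called 18 of them at an adjusted p of 0.05. In the authors' deposited table, gamma had 6 higher and 3 lower, beta 4 higher and 3 lower, and alpha 0 higher and 2 lower. The authors' deposited table called 25.9% of its 14325 genes (11.1% higher and 14.8% lower), and all 18 members lay among the 25 above with the same direction.

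In ESCs no member passed the threshold between genotypes. Of the 29 members tested, 7 alpha, 0 beta and 22 gamma, edgeR called 0, where 1.91% of all 16185 genes tested were called (1.37% higher and 0.544% lower). With the replicate letter as a block, edgeR called 0 members as well, where 518 of the 16185 genes were higher and 501 lower. DESeq2 also called 0, but it gave no alpha or beta member an adjusted p. Its lowest for a gamma member was 0.4, for Pcdhgc3. At an unadjusted p under 0.05 edgeR gave 4 alpha members and 1 gamma member, all higher in deletion ESCs, and DESeq2 gave 1 and 1. Pcdha6 had 0.533, 0.827 and 0.909 CPM in deletion ESCs, from 11, 16 and 17 counts, against 0.152, 0.298 and 0.434 CPM in control ESCs, from 3, 5 and 8 counts. The groups did not overlap, but the log2 fold change of 1.36 ± 0.42 (SE) had an edgeR adjusted p of 0.152, with 0.0731 under the replicate block and 0.0398 with all 12 libraries in 1 fit. The authors' deposited table calls Pcdha6, and no other member, in this comparison, with a log2 fold change of 1.32 and an adjusted p of 0.042, where 3.38% of its 14755 genes are called (2.42% higher and 0.962% lower). The 7 tested alpha members all had positive values, with a median of 0.74, and the alpha sum was 5.63 to 7.33 CPM in deletion ESCs against 3.70 to 5.27 CPM in control ESCs, from 79 to 141 counts a library. RSEM's posterior SD reached 70.2% of the count for an alpha member in ESCs.

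Among gamma members in ESCs, Pcdhgc3 had 17.1, 17.6 and 17.1 CPM in deletion ESCs, against 13.77, 15.01 and 14.19 CPM in control ESCs. All deletion libraries lay above all control libraries, with a log2 fold change of 0.26 ± 0.07 (SE) and an edgeR adjusted p of 0.102, or 0.0573 under the replicate block. Of the 22 gamma members, 5 had positive and 17 negative values, with a median of -0.09, and the gamma sum was 94.2 ± 0.626 CPM in deletion ESCs and 95.1 ± 2.71 CPM in control ESCs (SD, n = 3 each). The beta sum was 2.95 ± 0.352 CPM in deletion ESCs and 2.61 ± 0.696 CPM in control ESCs, and no beta member held enough counts there to be tested.

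The deletion effect itself differed between iNs and ESCs for 6 members. This was tested as the interaction in edgeR over all 12 libraries, the log2 fold change in iNs minus that in ESCs. Of 58 members 10.3% were called, where 13.5% of all 18299 genes tested were called (5.01% higher and 8.5% lower), so the count of members is below the background. In the gamma cluster Pcdhgc3 had an interaction of -0.61 ± 0.11 (SE, edgeR adjusted p = 0.00219), being lower with the deletion in iNs and having positive values in ESCs. Pcdhga12 had 0.80 ± 0.15 (edgeR adjusted p = 0.00264), Pcdhga4 0.70 ± 0.18 (edgeR adjusted p = 0.0182) and Pcdhga11 0.60 ± 0.17 (edgeR adjusted p = 0.0294). Their ESC values gave no rise. Pcdhga12 had 6.21, 6.07 and 5.06 CPM in deletion ESCs against 6.88, 7.03 and 6.36 CPM in control ESCs. Every deletion library was lower here, but the change was not called (log2 fold change -0.24, edgeR adjusted p = 0.337). Its interaction thus holds both a rise in iNs and lower values in deletion ESCs. Pcdhga11 had 7.06, 5.35 and 5.84 CPM in deletion ESCs against 6.36, 7.04 and 7.51 CPM in control ESCs. Pcdhga4 had 2.44, 3.25 and 2.48 CPM in deletion ESCs against 3.19, 2.93 and 3.05 CPM in control ESCs.

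In the alpha cluster Pcdha6 had an interaction of -1.59 ± 0.33 (SE, edgeR adjusted p = 0.005) and Pcdha12 one of -1.37 ± 0.43 (edgeR adjusted p = 0.0461). Both rest on ESC libraries with few reads. Pcdha12 had 8, 17 and 17 counts in deletion ESCs and 5, 2 and 10 counts in control ESCs. In iNs it had 29.8, 30.3 and 33.8 CPM with the deletion and 34.7, 31.9 and 36.6 CPM in controls, and was not called. Its interaction was lost in 10 of 12 fits that left out 1 library, with adjusted p of 0.0504 to 0.137 in edgeR. Without single libraries, those of Pcdhga11 and Pcdhga4 were lost in 7 and 3 fits, with adjusted p up to 0.0792 and 0.0535, while those of Pcdha6, Pcdhga12 and Pcdhgc3 were kept in all. In the beta cluster 0 of 22 members had an interaction, in edgeR or DESeq2, and 0 had an unadjusted p under 0.05. No beta member held more than 10 counts in an ESC library. The smallest SE of a beta interaction was 0.35, for Pcdhb22, where the largest beta change in iNs was 0.66. An interaction of that size could hardly be detected, so these counts of 0 say little.

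**Figure D4:**
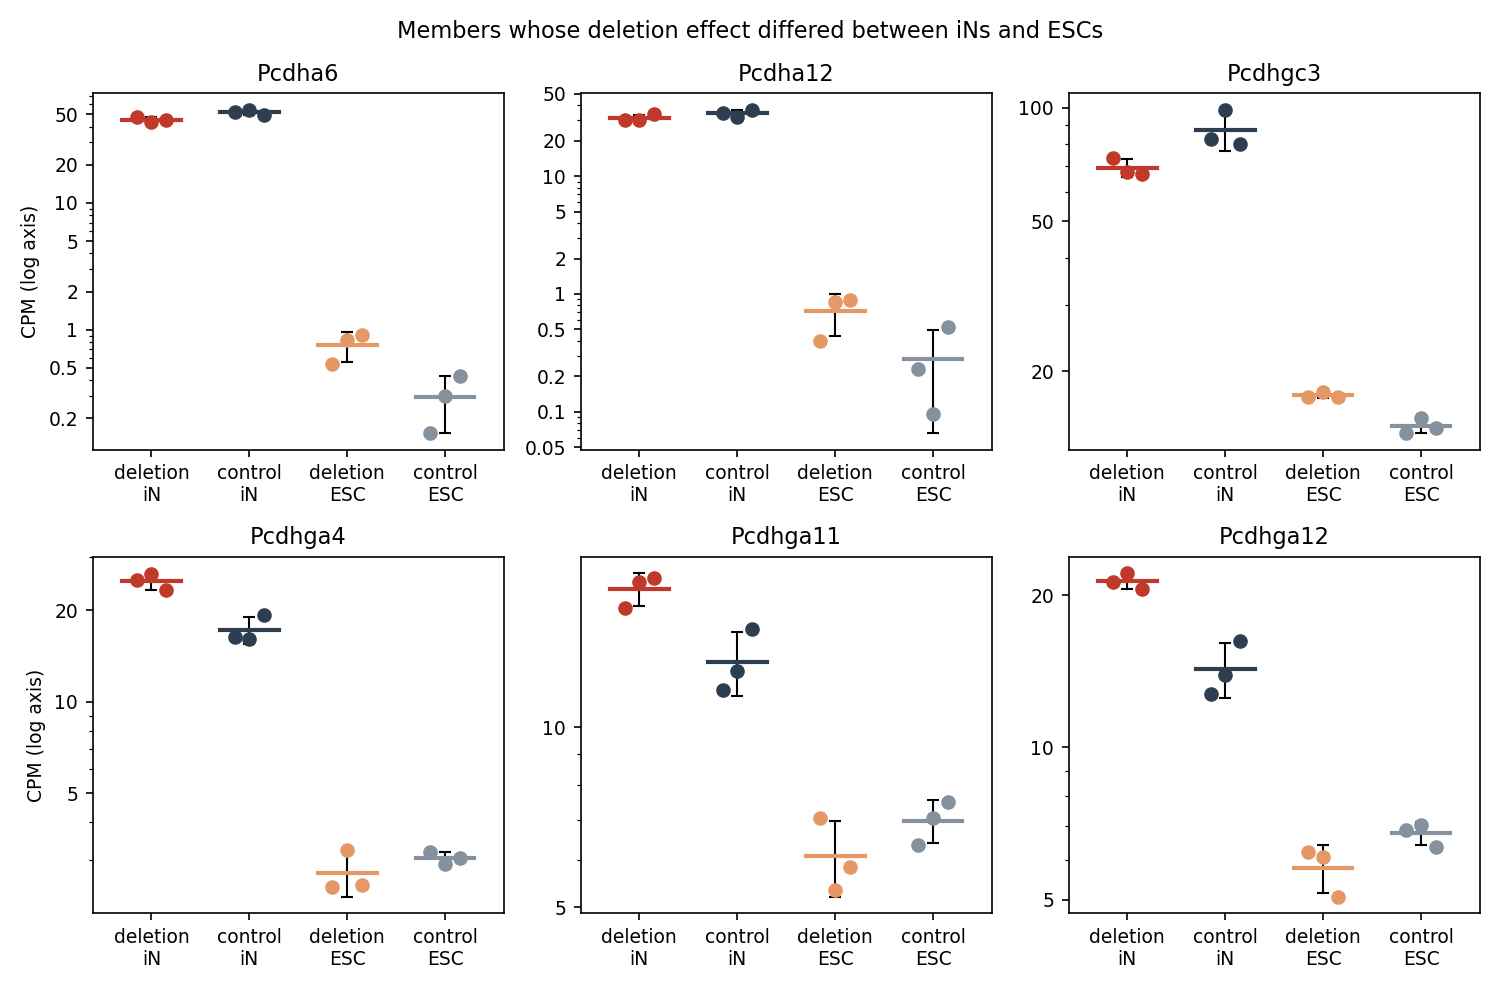
CPM in each RNA library, on log axes, of the 6 members whose deletion effect differed between iNs and ESCs; each point is 1 library, the thick bar is the group mean and the whiskers are SDs. Pcdhgc3 is lower in deletion than in control iNs but not in ESCs, and Pcdha6 and Pcdha12 sit below 1 CPM in every ESC library.

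Of 11 genes of CTCF and cohesin, 1 was higher and 10 lower in deletion iNs than in deletion ESCs and likewise in control iNs than in control ESCs, with medians of -1.30 and -1.33. Over all genes tested, 44.9% were lower in the deletion pair and 45.1% in the control pair, and 89.4% and 89.0% were called in either direction. Ctcf, the insulator protein that bridges enhancer and promoter, averaged 61.6 CPM in deletion iNs and 199 CPM in deletion ESCs, and 55.0 CPM in control iNs and 194 CPM in control ESCs. Wapl, which releases cohesin from DNA, had log2 fold changes of -2.07 in the deletion pair and -2.02 in the control pair. Among 15 genes of promoter choice and silencing, 4 were higher and 11 lower in each pair, against the same shares over all genes. Dnmt3b averaged 0.652 CPM in deletion iNs and 570 CPM in deletion ESCs, and 0.385 CPM in control iNs and 524 CPM in control ESCs. Rest, a repressor of neuronal genes, averaged 3.48 CPM in deletion iNs and 620 CPM in deletion ESCs, and 4.87 CPM in control iNs and 628 CPM in control ESCs. The part of these factors in the protocadherin levels was not tested.

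Between the iN genotypes, where 25.6% of all genes tested were called, 2 of 11 CTCF and cohesin genes were called. Ctcf was higher in deletion iNs (log2 fold change 0.17, edgeR adjusted p = 0.0331) and Pds5a, a cohesin regulator, lower (-0.39, edgeR adjusted p = 0.000859). Of 14 promoter choice and silencing genes tested, Dnmt3a, which methylates DNA anew, was higher (0.41, edgeR adjusted p = 0.00021), and 4 were lower, among them Smchd1 (-0.29), Tet1 (-0.33) and Rest (-0.49). Between deletion and control ESCs, Ehmt2, a histone H3 methyltransferase, was higher (0.22, edgeR adjusted p = 0.0458) and Tet2, which oxidises methylated cytosine, lower (-0.26, edgeR adjusted p = 0.0141). Of the genes of protocadherin cleavage and signalling, 2 were higher and 4 lower of 21 in deletion iNs than in control iNs, with a median of -0.01, a share near the 25.6% over all genes. Ptk2, the focal adhesion kinase that clustered protocadherins restrain, was among the lower ones (-0.30, edgeR adjusted p = 0.00104), as was Pdcd10 (-0.39, edgeR adjusted p = 0.0079). The 2 higher ones were Ptk2b (0.38, edgeR adjusted p = 0.0375) and Nlgn1 (0.28, edgeR adjusted p = 0.00193).

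The non-clustered protocadherins, which lie outside the 3 clusters, had 7 higher and 1 lower of 11 tested in deletion iNs than in control iNs, with a median log2 fold change of 0.42, where 12.4% of all genes tested were higher and 13.3% lower. Pcdh20 averaged 9.92 CPM in deletion iNs and 4.21 CPM in control iNs (1.25 ± 0.16 (SE), edgeR adjusted p = 4.89e-05). Pcdh19, the gene mutated in a female-limited epilepsy, averaged 27.1 CPM in deletion iNs and 14.1 CPM in control iNs (0.95 ± 0.13, edgeR adjusted p = 5.57e-05), and Pcdh9 averaged 85.3 CPM in deletion iNs and 45.5 CPM in control iNs (0.91 ± 0.07, edgeR adjusted p = 2.24e-07). Each of the 3 moved further than any clustered member. Against ESCs, 11 of 12 were higher and 1 lower in iNs of either genotype, with medians of 4.09 for the deletion pair and 3.80 for the control pair, between those of the gamma and the alpha cluster. Of all genes tested, 44.6% were higher in the deletion pair and 43.9% in the control pair. Between the ESC genotypes 0 of 8 tested were called by edgeR, where 1.91% of all genes were.

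Regions from the pulldown of Ago2, the protein that carries microRNAs, were read from the authors' list for control iNs. Its log2 values and p come from the authors and could not be checked on single replicates. Of 22400 distinct regions, 11 lay on the strand of the members and over a member, 9 of them over 7 beta genes: Pcdhb2, Pcdhb11, Pcdhb12, Pcdhb14, Pcdhb16, Pcdhb18 and Pcdhb19. The other 2 were alpha regions, one 123 bases past the start of Pcdha7 and one 2409 bases before the end of the constant exons that all alpha transcripts share. None of the 11 lay over a gamma member. Over the input the 11 regions had log2 values of 1.72 to 4.4 with a median of 2.72, where all regions had a median of 2.22. Over the pulldown from cells with untagged Ago2 they had log2 values of -1.59 to 1.58 with a median of -0.10, where all regions had a median of -0.13, and 3 of the 11 were above 0, where 42.9% of all regions were. The highest −log10 p over the untagged pulldown was 0.645, for a region in Pcdhb2. These values do not show binding of Ago2 to the regions over members beyond the untagged pulldown. The authors' list of regions matched to microRNAs of the deleted cluster had 997 entries, and 0 of them named a clustered protocadherin. With 997 entries beside 22400 regions, the 11 regions over members are too few for this 0 to say much.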

How the data were processed

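Per the file headers, the authors' RNA-seq tables gave for each gene the expected count, the posterior mean count with its SD (in counts) and TPM that RSEM estimates. Tools listed without roles per the submitters' processing notes are STAR 2.4.1d, cutadapt 1.4.2, SAMtools, DESeq2 and RSEM 1.2.30, with mm10; the strand setting and annotation release are not given in the sources used here. The authors' deposited DESeq2 tables held log2 fold changes, adjusted p-values and mean normalised counts, a signal value. The authors' deposited lists of Ago2 regions held a log2 fold and a −log10 p per region. Small RNA tables were not used here.

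Gene symbols were found for 52403 of 52636 entries. Expected counts were rounded, filtered with filterByExpr at a minimum count of 10, scaled by TMM and tested with edgeR 4.0.16 (quasi-likelihood, R 4.3.3), with Benjamini-Hochberg adjustment over all genes tested, on the libraries of the 2 groups compared or, for the interaction, all 12. This test reports no SE, so each SE given with edgeR is the absolute log2 fold change divided by the square root of its F statistic. The fit was tested on simulated counts. Alternatives were DESeq2 1.42.0 (Wald test), DESeq2's size factors in edgeR, no filter, posterior mean counts, all 12 libraries in 1 fit, the replicate letter as a block, each library left out and, chosen after seeing the data, ratios of TPM as deposited or relative to the median of all genes. Letters paired the ESC libraries of the 2 genotypes (correlations of deviations from group means 0.348, 0.107 and 0.136) and paired no other groups. Summaries used Python 3.11.15, pandas 2.3.3 and numpy 2.4.6. A floor of 3 counts over the group stood for 0, and 95% intervals are Poisson.

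Members and gene lists were chosen with earlier results of these data known. Named members are, per cluster, the 4 highest in TPM, the C-type genes and up to 3 with the largest changes past the threshold in each comparison; list genes are up to 4 with the largest changes and a mean log2 CPM of 2 or more. Pcdhb11 to Pcdhb13 as neighbours, Pcdhb17, the called Pcdhgb genes, Pcdhga3, Pcdhga10, Pcdha7, and the split of gamma members by level were singled out after their values were seen.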

Additional observations from a re-analysis of the deposited data

Results flagged for a closer look

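The deletion effect differed between iNs and ESCs, by the interaction in edgeR over 12 libraries, for 6 members. This is 10.3% of the 58 members, where 13.5% of all 18299 genes tested were called, so the count is below the background. The differences, log2 fold change in iNs minus that in ESCs, were -1.59 for Pcdha6 and -1.37 for Pcdha12 in the alpha cluster. In the gamma cluster they were 0.60 for Pcdhga11, 0.80 for Pcdhga12, 0.70 for Pcdhga4 and -0.61 for Pcdhgc3. Pcdha6 and Pcdha12 had 17 counts or fewer in every ESC library, and Pcdhgc3 was the member with the highest level in ESCs. Those of Pcdha12, Pcdhga11 and Pcdhga4 were lost without certain single libraries.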

How the results depend on the processing

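Calls between iNs and ESCs were kept by all 57 tested members under every alternative, with 57 to 58 higher and 0 lower when each library was left out, in both genotypes. For deletion iNs against control iNs, leaving out each library gave 10 to 17 higher and 4 to 8 lower members, and all 12 libraries in 1 fit gave 12 higher and 5 lower. The DESeq2 Wald test gave 12 and 8, and the replicate block 15 and 8. Between ESC genotypes the count stayed at 0 without any 1 library and under the replicate block, and was 1 with all 12 libraries in 1 fit. For the interaction, leaving out each library gave 1 to 4 higher and 2 to 3 lower; without deletion ESC replicate C, 1 was higher. No call changed sign under these fits. On TPM as deposited, log2 ratios of cluster sums for deletion over control iNs were 0.165 for alpha, 0.322 for beta and 0.296 for gamma, a scale chosen after seeing the data, on which alpha took the other sign; for deletion iNs over deletion ESCs beta had 7.92 and gamma 2.87, and for control iNs over control ESCs gamma had 2.54. ESC levels of alpha and beta members, with 31 to 141 counts per cluster and library, limit what could be detected there.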
